A study of Mus musculus with 96 samples.

Results

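The neurotrophins and their receptors were described here by 8 genes, taken as every row of the deposited gene table that carries the symbol Bdnf, Ntf3, Ntrk2, Ntrk3, Ngfr, Sort1, Sorcs2 or Sorcs3, which is 8 of 48795 rows. RNA of the cerebral cortex and the striatum was sequenced from each of 48 C57BL/6 mice aged 6 months, 96 libraries in all. The 6 genotypes were wild type, Q140 (1 copy of Htt, the Huntington's disease gene, replaced by a knock-in allele with an expanded CAG repeat), Msh6+/-, Msh6-/-, or Q140 crossed with either Msh6 genotype, with 8 mice of each genotype and both sexes in every group. Msh6 is a DNA mismatch repair gene, and the labels do not say which part of it was deleted. Apart from the animal numbers, the groups differ only in these 2 alleles as far as the labels go. Those numbers, which the labels leave unexplained, ran from 13-1 to 21-1 in wild-type mice and from 21-3 to 38-1 in Q140 Msh6-/- mice. The comparison asks whether Q140, Msh6 or both together went with other transcript levels of this family.

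Neurotrophins are secreted growth factors that keep neurons alive and shape their synapses. Bdnf binds the receptor tyrosine kinase TrkB (gene Ntrk2) and Ntf3 binds mainly TrkC (gene Ntrk3), while uncleaved proneurotrophins bind p75NTR (gene Ngfr) together with sortilin (gene Sort1) or a related sorting receptor of the Sorcs group. The striatum makes almost no Bdnf transcript of its own and receives the protein along axons from the cortex, which is why this family is often studied in Huntington's disease.

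Libraries held 12403528 to 22886441 counts, and group means ran from 17538425 to 20705669 counts. Levels are given as CPM, the counts of a gene brought to a common library total after TMM scaling, with every mouse counted once per tissue. Msh6 followed the labels: in striatum it was at 17.4 ± 1.28 CPM (SD, n = 8) in wild type, 13.8 ± 1.30 CPM in Msh6+/- and 8.09 ± 1.32 CPM in Msh6-/- mice. Htt was at 240.3 CPM in the median wild-type striatum and 221 CPM in the median Q140 striatum. Marker lists of 12 cell types placed the tissues as labelled. The summed cortical glutamatergic neuron list was at 2439 to 2635 CPM in cortex without Q140 and at 121 to 165 CPM in striatum, and the striatal projection neuron list was at 525 to 630 CPM in cortex and at 12532 to 15902 CPM in striatum. No gene of any of these lists was at 0 in a whole group. The striatum of 1 Q140 Msh6-/- mouse (animal 21-3) stood apart, with 2788 CPM of choroid plexus and ependyma markers against a median of 40.0 CPM in Q140 striata. Leaving it out changed no call on the 8 genes.

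In wild-type mice the family was split between the tissues, with the ligands in cortex. Compared per length of gene, as FPKM (the count scaled by gene length and library total), cortical levels were highest for Sort1 at 105 ± 3.31 FPKM (SD, n = 8) and Ntrk2 at 51.2 ± 2.51 FPKM. Below these came Sorcs3 at 10.8 ± 1.35 FPKM, Ntrk3 at 7.59 ± 0.457 FPKM, Sorcs2 at 6.10 ± 0.342 FPKM and Bdnf at 4.396 ± 0.791 FPKM. Ntf3 at 0.266 ± 0.101 FPKM and Ngfr at 0.253 ± 0.0635 FPKM did not differ beyond their spread. In striatum the order was Sort1 at 75.7 ± 4.32 FPKM, Ntrk2 at 39.6 ± 2.51 FPKM, Sorcs2 at 18.5 ± 1.15 FPKM, Ntrk3 at 10.2 ± 0.760 FPKM, Sorcs3 at 4.86 ± 0.482 FPKM and Ngfr at 0.836 ± 0.240 FPKM. Sorcs2 and Sorcs3, sorting receptors of the same group, thus changed places between the tissues. The values use 1 length per gene, so the full-length and truncated transcripts that Ntrk2 and Ntrk3 are known for were not told apart.

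**Figure D1:**
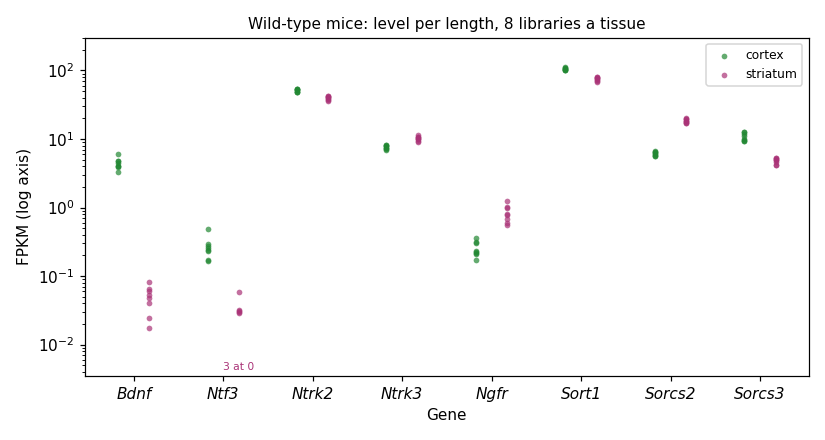
Level of each of the 8 genes in FPKM, on a log axis, with 1 point per wild-type mouse and tissue (8 libraries each). Bdnf lies at 3.33 to 5.97 FPKM in cortex and at 0.0177 to 0.0834 FPKM in striatum, and 3 striatal libraries hold no Ntf3 read.

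Bdnf (chromosome 2, 109674700 to 109727007, plus strand, GRCm38; the antisense gene Gm45346 overlaps its exons) had 410 to 630 counts in wild-type cortex and 2 to 10 counts in wild-type striatum. The fitted striatum minus cortex log2 difference was -6.45 ± 0.20 (SE; adjusted p = 1.4e-50, edgeR quasi-likelihood test with Benjamini-Hochberg adjustment over all genes tested, as for every adjusted p here unless said otherwise). Ntf3 (chromosome 6, 126101412 to 126166910, minus strand) had 6 to 18 counts in wild-type cortex and 0 to 2 in striatum, with a fitted difference of -3.34 ± 0.48. No cortical library of either gene overlapped a striatal one in wild-type mice. Bdnf and Ntf3 enter this fit only through their cortical counts, so that they had to differ, and the size of both fitted differences rests on few striatal reads. The 6 other genes passed the filter on low counts in each tissue, and each was called between the wild-type tissues, as were 72.4% of all genes tested. Sorcs3 at -1.15 ± 0.07, Sort1 at -0.47 ± 0.03 and Ntrk2 at -0.37 ± 0.05 on the log2 scale were lower in striatum. Higher there were Ngfr at 1.72 ± 0.24, Sorcs2 at 1.60 ± 0.04 and Ntrk3 at 0.43 ± 0.06.

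Bdnf is known for its many start sites, and the RefSeq table (GRCm38.p6), which matched 5 of the 8 members, holds promoter windows for 7 of them. The window shown covers the 250 bases before 1 start, chr2:109692186-109692435, plus strand, and is printed because it alone of the 7 holds TGACG (searched on both strands, so as CGTCA here), the half-site of the element that the activity-driven factor CREB binds. The match is in capitals and begins 35 bases before the start.
Bdnf: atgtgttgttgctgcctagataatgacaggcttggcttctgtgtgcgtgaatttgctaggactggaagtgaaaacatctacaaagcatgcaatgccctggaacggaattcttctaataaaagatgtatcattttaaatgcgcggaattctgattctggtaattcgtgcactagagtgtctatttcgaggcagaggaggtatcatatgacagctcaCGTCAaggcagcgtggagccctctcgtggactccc
Of all 32851 windows of the same length in that table, 17.8% hold the letters. Deposited counts add up all start sites of a gene, so no level can be given for this one. In cortex the genes whose residual log2 CPM, after genotype and sex were taken out, followed Bdnf most closely over the 48 libraries were Nr4a3 (Pearson r 0.78), Fosl2 (0.77) and Dusp4 (0.76). The first 2 encode transcription factors and the last a MAP kinase phosphatase, all known to be induced by neuronal activity. The libraries share tissue and processing, and these r are a description over 12503 genes compared.

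In striatum 3 receptors were lower in Q140 mice, whatever the Msh6 genotype: Ntrk3, Sort1 and Sorcs2. Averaged over the 3 Msh6 genotypes, Ntrk3 fell by 25.6%, Sorcs2 by 16.8% and Sort1 by 15.4% with TMM scaling. The falls were smaller in the deposited FPKM. There the means without and with Q140 were 10.4 and 8.12 for Ntrk3, 18.6 and 16.2 for Sorcs2 and 76.1 and 67.6 for Sort1. Ngfr and Sorcs3 also passed the test in that average, and Ntrk2 did not. Against wild type alone, 3 of the 6 members that passed the filter on low counts (Bdnf and Ntf3 did not) were called lower and none higher, where 14.2% of all genes tested were called lower. In Msh6+/- mice these were 3 of 6 against 14.9% of genes, in Msh6-/- mice 4 of 6 against 15.2%, and in the average 5 of 6 against 23.6%. The 3 Q140 comparisons use different mice on both sides. The share of all genes in which Q140 mice separate from controls, as described below, was not counted. Such separation is therefore not shown to be particular to these receptors.

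**Figure D2:**
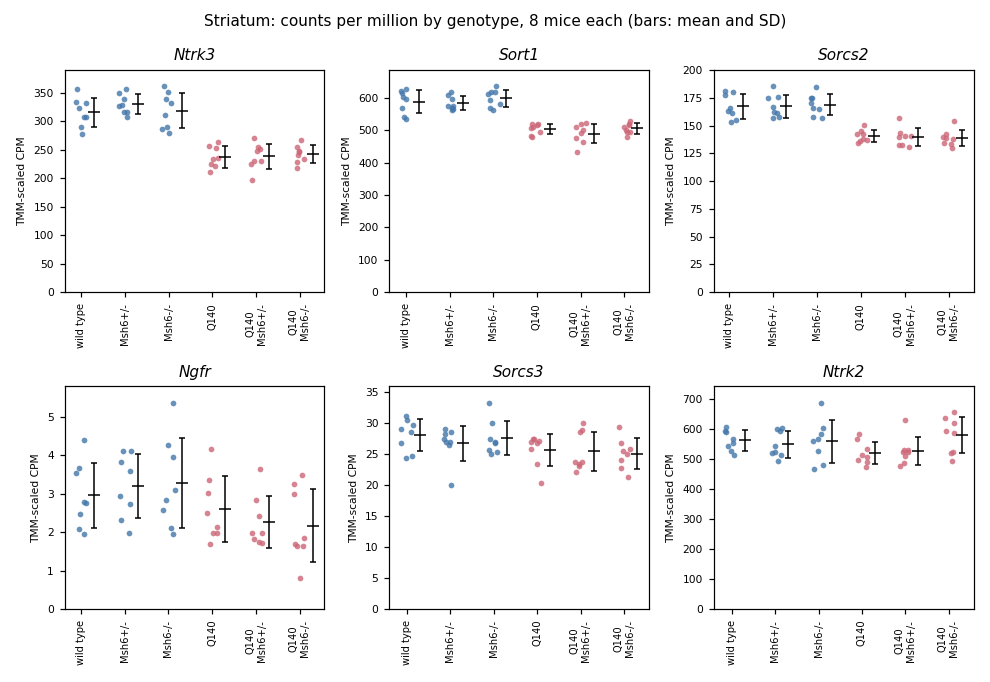
TMM-scaled CPM of 6 genes in striatum, 1 point per mouse, with the mean and SD of each genotype (8 mice each) as black bars; blue groups lack Q140 and red groups carry it. For Ntrk3 all 24 Q140 mice lie at or below 270.1 CPM and all 24 others at or above 278 CPM.

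Ntrk3 (chromosome 7, 78175959 to 78738012, minus strand) encodes TrkC. In striatum it ran from 278 through a median of 316 to 356 CPM in wild type and from 211 through 235 to 264 CPM in Q140 mice. On the Msh6+/- background the values were 308, 327 and 358 CPM without Q140 and 198, 239.7 and 270.1 CPM with it, and on the Msh6-/- background 279.8, 321 and 362 CPM against 219, 243 and 267 CPM. In each pair every Q140 mouse was below every control, and the same held for all 24 against all 24, a separation not counted over all genes. In that order the fold changes on the log2 scale were -0.41 ± 0.05 (SE; adjusted p = 2.8e-08), -0.47 ± 0.05 (adjusted p = 1.0e-09) and -0.40 ± 0.05 (adjusted p = 5.6e-08), and -0.43 ± 0.03 in the average (adjusted p = 1.2e-16).

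Sort1 (chromosome 3, 108284082 to 108361511, plus strand) encodes sortilin, which sorts Bdnf into the regulated secretory pathway and serves as co-receptor for proneurotrophins. Its lowest, median and highest striatal values were 535, 599 and 629 CPM in wild type and 479, 508 and 519 CPM in Q140. In Msh6+/- mice they were 563, 576 and 619.6 CPM without and 434, 496 and 523 CPM with Q140, and in Msh6-/- mice 564, 602 and 636 CPM without and 480.4, 505 and 528 CPM with it. No Q140 mouse reached the lowest control of any background. The log2 fold changes were -0.22 ± 0.03 (adjusted p = 2.2e-08), -0.26 ± 0.03 (adjusted p = 6.5e-10) and -0.24 ± 0.03 (adjusted p = 2.2e-09), and the average was -0.24 ± 0.02 (adjusted p = 1.8e-17). An annotated antisense gene, Gm12523, overlaps its exons, and the strand setting of the counting is not given.

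Sorcs2 (chromosome 5, 36017180 to 36398139, minus strand) encodes a sorting receptor that acts with p75NTR and with TrkB. In striatum it ran from 153.8 through 164 to 181 CPM in wild type and from 135 through 140.01 to 151 CPM in Q140. In Msh6+/- mice the values were 156.9, 164 and 186 CPM without and 131, 140.02 and 156.6 CPM with Q140, and in Msh6-/- mice 157, 168 and 185 CPM without and 129.9, 138 and 155 CPM with it. The groups did not overlap within any background, and 22 of 24 Q140 mice were below all 24 controls. The log2 fold changes were -0.25 ± 0.04 (adjusted p = 1.7e-06), -0.26 ± 0.04 (adjusted p = 5.8e-07) and -0.28 ± 0.04 (adjusted p = 1.2e-07), and the average was -0.27 ± 0.02 (adjusted p = 3.4e-14).

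Sorcs2 is on the chromosome of the knock-in allele, and its annotated end nearest to Htt is 1.1 Mb from Htt. Of the tested genes on either side of it, Afap1, an actin filament-associated protein gene, had a striatal average log2 fold change of -0.09 ± 0.04 (adjusted p = 0.039), and 2210406O10Rik had 0.08 ± 0.09 (adjusted p = 0.48). In cortex the Sorcs2 average was -0.02 ± 0.02 (adjusted p = 0.67). Whether DNA inherited with the knock-in allele has a part in the Sorcs2 values was not tested, as every Q140 mouse carries that allele.

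Ngfr (chromosome 11, 95568818 to 95587735, minus strand) encodes p75NTR, which in the adult striatum is known from cholinergic fibres and neurons. It was low: 33 to 110 counts per library in the 24 striata without Q140 and 16 to 80 counts in the 24 with it. The CPM ran from 1.95 through a median of 2.90 to 5.36 without Q140 and from 0.796 through 1.99 to 4.17 with it, and 9 of 24 Q140 mice were below all controls. The averaged log2 fold change was -0.42 ± 0.13 (adjusted p = 0.0056). Of the single backgrounds only Msh6-/- passed, at -0.59 ± 0.23 (adjusted p = 0.038), against -0.19 ± 0.22 in wild type and -0.48 ± 0.23 in Msh6+/-, and the differences between backgrounds did not pass (adjusted p of 0.996 and 0.998). The Msh6-/- call was lost under 5 alternatives, among them no filter (adjusted p = 0.058) and the 2 groups alone (adjusted p = 0.066). In Msh6+/- mice the call was gained with the 2 groups alone, at -0.51 ± 0.16 (adjusted p = 0.017), and with the prefix of the animal number as covariate, at -0.62 ± 0.22 (adjusted p = 0.030), so which background passed depended on the setting. With the cortical glutamatergic marker level as a covariate the wild-type comparison came to -0.75 ± 0.22 (adjusted p = 0.0076) and that in Msh6+/- mice to -1.14 ± 0.23 (adjusted p = 0.00013). The calls in Msh6-/- mice and in the average were kept there. This marker list itself summed to a median of 143 CPM in striata without and 159 CPM with Q140. The values with and without the covariate thus do not measure the same Q140 difference. Among the genes most like Ngfr in striatum was Cux2, a marker on that list (residual r 0.68).

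Sorcs3 (chromosome 19, 48206025 to 48805505, plus strand), the third Sorcs receptor and a neuronal protein, ran from 19.9 through 27.1 to 33.2 CPM in striata without Q140 and from 20.3 through 25.7 to 30.05 CPM in those with it. The groups overlapped throughout. Its averaged log2 fold change was -0.11 ± 0.04 (adjusted p = 0.021), and on log2 of FPKM plus 0.1 it was -0.04 ± 0.04 (adjusted p = 0.44, limma), a scale on which the median of all genes also moved up, from 0.02 to 0.08. Ntrk2 (chromosome 13, 58806569 to 59133970, plus strand), which encodes TrkB, ran from 466 through 556 to 687 CPM without Q140 and from 474 through 523 to 658 CPM with it. Its averaged log2 fold change was -0.04 ± 0.03 (95% interval -0.11 to 0.03; adjusted p = 0.32). Against wild type alone it was at -0.11 ± 0.06 (adjusted p = 0.16), and it was called lower there with the 2 groups alone, at -0.11 ± 0.04 (adjusted p = 0.038), and with the animal number prefix as covariate, at -0.16 ± 0.06 (adjusted p = 0.042). In Msh6+/- mice the Ntrk2 change was -0.06 ± 0.06 (adjusted p = 0.46) and in Msh6-/- mice 0.05 ± 0.06 (adjusted p = 0.55). The Ntrk2 average thus joins estimates of both signs.

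Striatal Bdnf and Ntf3 stayed near the limit of counting in every genotype. Bdnf had 110 counts in all over the 24 striata without Q140 and 128 counts over the 24 with it, and was at 0 in 1 library. Ntf3 had 23 counts against 24, with 10 and 9 libraries at 0. Both enter the fit of all 96 libraries only through their cortical counts. In that fit the Q140 difference in striatum minus that in cortex was 0.31 ± 0.30 on the log2 scale for Bdnf (95% interval -0.29 to 0.90; adjusted p = 0.46) and 0.24 ± 0.51 for Ntf3 (95% interval -0.76 to 1.23; adjusted p = 0.77), so small changes could not be seen at this depth.

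These are bulk tissue counts, so fewer cells of a type and less RNA per cell cannot be told apart. The striatal projection neuron list summed to 12532 to 15902 CPM without Q140 and to 8200 to 9115 CPM with it, and 11 of its 12 genes were called lower and 1 higher in the average. In the same average 10 of 10 microglia markers, 9 of 9 endothelial markers, 7 of 10 astrocyte markers and 4 of 6 cholinergic markers were lower, with medians of -0.18, -0.21, -0.11 and -0.10 on the log2 scale against 0.02 over all genes, of which 23.6% were lower and 29.1% higher. The cholinergic list also had 1 marker higher. Lower too were 6 of 10 oligodendrocyte (median -0.16), 4 of 10 pericyte and fibroblast (-0.14) and 3 of 7 oligodendrocyte precursor markers (-0.07), with 0 higher. GABAergic interneuron markers had 4 of 7 lower and 1 higher (-0.10), and claustrum and amygdala markers 1 of 4 lower and 2 higher (0.03). Of 8 cortical glutamatergic markers tested 4 were higher and 2 lower (median 0.34), and of 5 choroid plexus and ependyma markers 3 were higher and 0 lower (median 0.59). Against wild type 0 choroid plexus and ependyma markers were called (median 0.08), and in Msh6+/- mice 0 (0.05). In Msh6-/- mice, the background of animal 21-3, 4 were higher (2.42), and DESeq2 called 1 in the average. The part of these shifts in the receptor values was not tested. In residual log2 CPM over the 48 striata, the genes most like Sorcs2 were the D2 dopamine receptor gene Drd2 (r 0.64), the potassium channel gene Kcnk2 (0.64) and the projection neuron factor Bcl11b (0.63), of which Drd2 and Bcl11b are on the projection neuron list. Most like Ntrk3 were Huwe1 (0.81), Dgki (0.81) and Trrap (0.80), and most like Sort1 were Abat (0.72), Slc24a2 (0.71) and Smpd3 (0.69). For Ntrk2 they were Hdac4 (0.82), Unc79 (0.80) and Kalrn (0.79), for Ngfr Cat (0.69) and Asah2 (0.68) beside Cux2, and for Sorcs3 Ptch1 (0.69), Htr2c (0.68) and Lrrc32 (0.67). In cortex Ntrk2 was followed most closely by Iqgap2 (0.85), Zdhhc14 (0.84) and Enc1 (0.81), Ntrk3 by Cacna1e (0.76), Tnrc6b (0.76) and Enah (0.75), Sort1 by Camk4 (0.74), Rora (0.74) and Akap6 (0.73), and Sorcs3 by Csmd2 (0.68), B3gat1 (0.58) and Zfp532 (0.58).

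In cortex 2 members, Sorcs3 and Sort1, were called lower in the Q140 average, and both were also called lower in the striatal average. Against wild type 0 of 8 members were called by edgeR, where 0.0170% of genes were called in either direction. There 1 member (Sort1) had an unadjusted p under 0.05, and DESeq2 called Sort1 alone. In Msh6+/- mice 1 of 8 (Sorcs3) was called lower against 0.119% of genes, while DESeq2 called Sort1 there, at -0.08 ± 0.02 on the log2 scale (adjusted p = 0.039), and gave Sorcs3 no adjusted p. In Msh6-/- mice 0 of 8 were called, where 0.0908% of genes were called lower, with 3 members at an unadjusted p under 0.05 and 0 called by DESeq2. In the average 2 of 8 were called lower, against 1.07% of genes. Sorcs3 ran from 53.3 through 62.4 to 76.4 CPM in cortices without Q140 and from 48.2 through 54.8 to 68.4 CPM in those with it, and 8 of 24 Q140 mice were below all controls. It fell by 11.7% in the average, a log2 fold change of -0.18 ± 0.03 (adjusted p = 0.0016), and on the Msh6+/- background by 0.27 ± 0.06 on the log2 scale (adjusted p = 0.033). The Msh6+/- call was lost with no sex term (adjusted p = 0.055) and on log2 of FPKM plus 0.1 (adjusted p = 0.097, limma).

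Sort1 ran from 732 through 788 to 848 CPM in cortices without Q140 and from 684 through 755 to 817 CPM in those with it, and the groups overlapped. Its averaged log2 fold change was -0.07 ± 0.01 (adjusted p = 0.0027). Bdnf itself ran from 20.0 through 26.2 to 40.4 CPM without Q140 and from 19.5 through 25.0 to 38.0 CPM with it, and the averaged change was -0.08 ± 0.07 (95% interval -0.21 to 0.05; adjusted p = 0.66). For Ntrk3 the average was -0.05 ± 0.03 (adjusted p = 0.57), for Ntrk2 -0.03 ± 0.02 (adjusted p = 0.66), for Ngfr -0.35 ± 0.14 (adjusted p = 0.23) and for Ntf3 -0.22 ± 0.15 (adjusted p = 0.54). Cortical Ntf3 had 4 to 23 counts per library and cortical Ngfr 6 to 31, so only large changes of these genes could be seen.

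**Figure D3:**
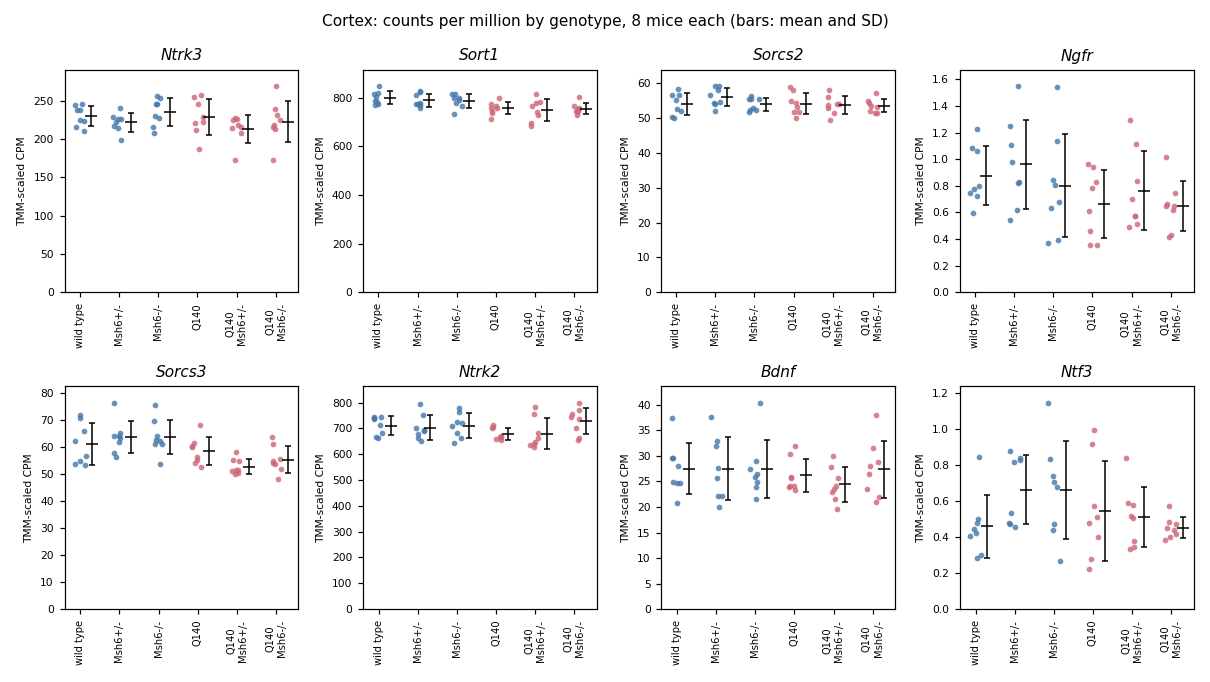
TMM-scaled CPM of the 8 genes in cortex, 1 point per mouse, with the mean and SD of each genotype (8 mice each) as black bars; blue groups lack Q140 and red groups carry it. The groups overlap for every gene, and Sorcs3 shows the lowest levels in Q140 Msh6+/- mice at 52.8 ± 2.86 CPM (SD, n = 8).

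The Q140 difference itself was compared between the tissues in a fit of all 96 libraries. It was more negative in striatum for Ntrk3 at -0.37 ± 0.05 (adjusted p = 2.0e-10), Sorcs2 at -0.24 ± 0.03 (adjusted p = 1.9e-10) and Sort1 at -0.16 ± 0.02 (adjusted p = 1.8e-09), on the log2 scale. These are 3 of 8 members, where 16.2% of genes had a more negative Q140 difference in striatum. For Sorcs3 the difference was 0.07 ± 0.06 (adjusted p = 0.31) and for Ngfr -0.07 ± 0.21 (adjusted p = 0.83).

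**Figure D4:**
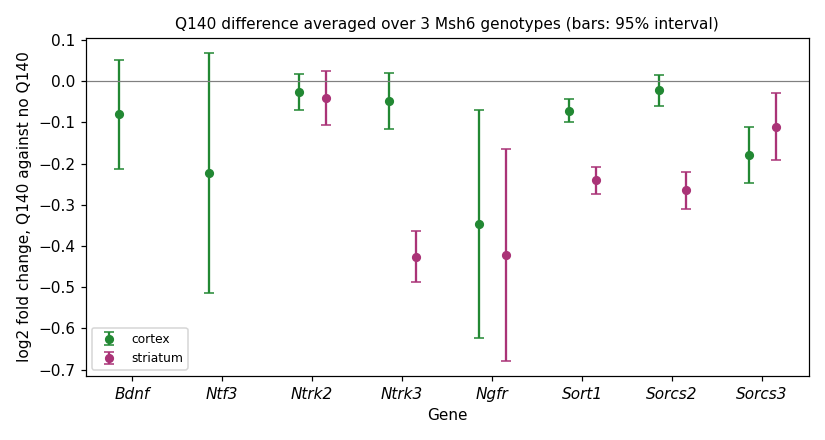
Averaged log2 fold change of Q140 mice against mice without Q140 for each gene and tissue, with its 95% interval as bars; Bdnf and Ntf3 have no striatal value because they did not pass the filter. Ntrk3, Sort1 and Sorcs2 lie at -0.43, -0.24 and -0.27 in striatum and at -0.05, -0.07 and -0.02 in cortex.

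Neither loss of 1 Msh6 copy nor of both went with a called change in any member. In striatum edgeR called 0 of 6 in Msh6+/- and in Msh6-/- mice against wild type, where 0.0114% and 0.0971% of genes were called, and 0 of 6 in Q140 Msh6+/- and Q140 Msh6-/- against Q140 mice, where 0.00571% and 0.177% were. Of these, 1 member (Ntrk2, Q140 Msh6-/- against Q140) had an unadjusted p under 0.05, at 0.15 ± 0.06 (adjusted p = 0.74). In cortex the same 4 comparisons called 0 of 8, against 0.00567%, 0.131%, 0.0113% and 0.153% of genes, with 1 member each under an unadjusted p of 0.05. These were Ntf3 in both comparisons against wild type, Sorcs3 in Q140 Msh6+/- and Ntrk2 in Q140 Msh6-/- mice. The last was at 0.10 ± 0.04 (adjusted p = 0.63). The tests of whether the Q140 difference changed with Msh6 genotype called 0 members, and 0% of genes, in both tissues. No unadjusted p was under 0.05 there in striatum, and 1 was in each cortical test. DESeq2 also called 0 in all of these, among members to which it gave an adjusted p. For striatal Ntrk3 the Q140 difference in Msh6-/- minus wild-type mice was 0.02 ± 0.08 (95% interval -0.13 to 0.17), for Sort1 -0.02 ± 0.04 (-0.10 to 0.06) and for Sorcs2 -0.03 ± 0.06 (-0.14 to 0.08). For striatal Ntrk2 it was 0.16 ± 0.08 (-0.001 to 0.32), with an adjusted p of 0.98.

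Sort1 was higher in females than in males in both tissues. In cortex it ran from 684 through 792 to 848 CPM in 24 females and from 697 through 758 to 801 CPM in 24 males, a log2 difference of 0.06 ± 0.01 (adjusted p = 0.0059), and in striatum the difference was 0.07 ± 0.02 (adjusted p = 0.0097). Ntrk2 was lower in female cortex, from 630.1 through 666 to 780.1 CPM against 656 through 723 to 799 CPM in males, a difference of -0.09 ± 0.02 (adjusted p = 0.0090). In striatum the Ntrk2 difference was similar, at -0.08 ± 0.03, but did not pass (adjusted p = 0.14). The sexes overlapped in each case. Called by sex were thus 1 of 6 members in striatum and 2 of 8 in cortex, where 5.54% and 6.31% of genes were called.

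Ntrk2 levels went together in the 2 tissues of a mouse. With genotype and sex taken out, its log2 CPM in striatum and cortex correlated over 48 mice at Pearson r 0.78 (Spearman rho 0.73; adjusted permutation p = 8.0e-05 for each over the 8 members, the raw p of 1e-05 being the smallest that 100000 permutations can give), and at 0.71 without the 2 mice farthest from the cortical median. Over 16806 genes the median r was 0.16, and 0.678% of them were above Ntrk2. Sorcs3 at r 0.51 (rho 0.51; adjusted p = 0.0010 and 0.0011) and Ngfr at r 0.47 (rho 0.44; adjusted p = 0.0019 and 0.0050) also passed, by permutation. Of all genes 6.38% were above Sorcs3 and 8.82% above Ngfr. The permutations test against no correlation, not against the median r of 0.16. Bdnf, Sort1 and Sorcs2 had r of -0.16, 0.02 and -0.04. Ntrk3 at 0.28 and Ntf3 at -0.28 did not pass on r (adjusted permutation p = 0.086 for both) but did on rho, at 0.34 and -0.37 (adjusted permutation p = 0.031 and 0.020), and striatal Ntf3 rests on 0 to 5 counts per library. With the prefix of the animal number, which the labels leave unexplained, also taken out, Ntrk2 stayed at 0.77.

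**Figure D5:**
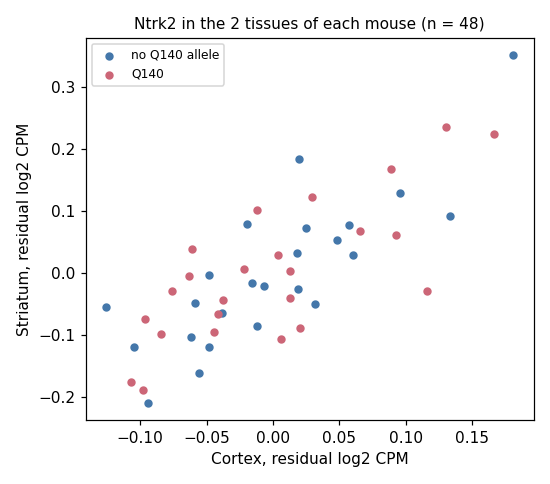
Ntrk2 in striatum against cortex, each as log2 CPM with genotype and sex taken out, 1 point per mouse (48 mice), blue without and red with Q140. Mice high in one tissue are high in the other, at Pearson r 0.78.

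Around the receptors, the wider pathway was followed in 106 genes of 8 lists, of which 103 were tested in striatum. In the striatal average 46 were called lower and 23 higher, where 23.6% of all genes were lower and 29.1% higher, and the list median was -0.04 on the log2 scale against 0.02. Of the genes that Bdnf is known to induce, 14 of 17 tested were lower and 0 higher, with a median of -0.44. Homer1, a synaptic scaffold gene, went from 275 ± 41.1 CPM (SD, n = 24) to 174 ± 17.7 CPM, at -0.66 ± 0.05 (adjusted p = 2.4e-16). Spry2, a feedback inhibitor of receptor tyrosine kinases, was at -0.52 ± 0.04 (adjusted p = 5.4e-16) and the zinc finger factor Egr2 at -1.47 ± 0.19 (adjusted p = 7.5e-09). Many genes on this list respond to neuronal activity of any kind, not to Bdnf alone.

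Of the kinases and factors downstream of Trk receptors, 14 of 26 were lower and 4 higher (median -0.06). Gsk3b, a kinase held in check by Akt, was at 419 ± 13.9 CPM without and 309 ± 11.2 CPM with Q140 (SD, n = 24), or -0.44 ± 0.01 on the log2 scale (adjusted p = 2.1e-30). The GTPase gene Hras was at -0.49 ± 0.02 (adjusted p = 1.5e-25) and the kinase gene Camk4 at -0.48 ± 0.02 (adjusted p = 2.6e-23). The adaptors that dock to Trk receptors were mixed, with 6 of 18 lower and 8 higher (median 0.04). The neuronal adaptor gene Shc2 was lower at -0.31 ± 0.02 (adjusted p = 3.1e-19), and the Ras activators Sos1 and Sos2 were higher at 0.16 ± 0.02 and 0.13 ± 0.02.

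Proneurotrophin processing had 4 of 10 lower and 2 higher (median -0.04), with the convertase genes Pcsk2 at -0.18 ± 0.02 and Pcsk1 at 0.59 ± 0.07 and the protease gene Plat at -0.20 ± 0.03. Of the genes for axonal transport of Bdnf, 2 of 10 were lower and 4 higher (median 0.03), near the 23.6% and 29.1% of all genes. The kinesin gene Kif5c was at -0.24 ± 0.02 and the dynein genes Dync1i1 and Dync1h1 at 0.16 ± 0.02 and 0.09 ± 0.01. The other lower gene of this list was Htt, the gene that carries the knock-in allele, at -0.12 ± 0.02. Htt thus also counts in the totals of the wider pathway in both tissues. Of the p75NTR signalling list 15 of 16 genes were in the table, and 3 were lower and 5 higher (median 0.03), also near those shares, with Maged1 at 0.21 ± 0.02 and Zfp110 at 0.28 ± 0.03 among the higher ones. Among the other receptors 3 of 6 were lower and 0 higher (median -0.05), among them Rtn4r, the Nogo receptor that pairs with p75NTR, at -0.57 ± 0.09 and Sorcs1 at -0.05 ± 0.02. Striatal Rtn4r was low, at 1.53 ± 0.288 CPM without and 1.03 ± 0.262 CPM with Q140 (SD, n = 24).

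In cortex 6 of 103 pathway genes were lower and 2 higher in the average, where 1.07% of genes were lower and 0.471% higher. The p75NTR partners Lingo1 at -0.20 ± 0.03 (adjusted p = 5.7e-06) and Rtn4r at -0.13 ± 0.02 (adjusted p = 1.6e-05) were lower, so Rtn4r was called lower in both tissues. Of the other lists, Htt at -0.10 ± 0.02, the kinase genes Mapk8 at -0.08 ± 0.02 and Mapk9 at -0.06 ± 0.02 and Pik3cb at -0.09 ± 0.02 were lower, and Traf6 at 0.11 ± 0.02 and Mapk3 at 0.17 ± 0.04 were higher. Of the 18 genes that Bdnf is known to induce edgeR called 0 in cortex (median -0.13), with 5 at an unadjusted p under 0.05 and 0 called by DESeq2. Among them Egr2 stood at -0.38 ± 0.17 (adjusted p = 0.31).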

How the data were processed

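The submitters' processing notes name STAR 2.7.5c, SAMtools 1.10, HTSeq 0.12.3 and the build GRCm38 (mm10). RNeasy extraction and a stranded TruSeq library preparation were used, per the labels' protocols. The annotation release was not given in the sources used here, nor was the strand setting. The authors deposited integer counts per gene and FPKM values. In 17260 genes with counts of at least 20, the deposited FPKM equalled the count over a fixed length per gene and the column total, within 1%. Positions are from GENCODE M21 on GRCm38, which holds 48349 of 48795 identifiers. Protein sequences were not used here.

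Counts of each tissue's 48 libraries were fitted with edgeR 4.0.16 (R 4.3.3; quasi-likelihood, TMM scaling, filterByExpr with minimum count 10, minimum total 15 and groups of 8) with genotype and sex. Tissue contrasts used all 96 libraries. The Q140 average weights the 3 Msh6 genotypes equally. Adjusted p is Benjamini-Hochberg over all genes tested, with a threshold of 0.05. Residuals use log2(CPM + 0.5). The method was tested on simulated data. Alternatives were DESeq2 1.42.0, RLE scaling, no filter, leaving out sex, a covariate (the prefix of the animal number or a cortical marker level), the 2 groups alone, limma 3.58.1 on log2(FPKM + 0.1) or + 1, adjusted p below 0.1, leaving out animal 21-3, and a replicate block by animal. The tissues are paired because both come from the same animal; same-animal residuals correlated at a median r of 0.162 across genes, over 0.1 in 42 of 48 animals. The labels call mice separate samples but do not describe litters.

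Members and lists were chosen with earlier results of these data known. Named genes were the 8 members, Msh6, Htt, up to 3 called genes of smallest adjusted p per pathway list and tissue, the 3 genes most like each member among those averaging 1 or more in log2 CPM, without predicted or clone names, and the tested neighbours of Sorcs2. Egr2 in cortex was named after its value was seen. Some genes that this rule names are not reported here.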

Additional observations from a re-analysis of the deposited data

Results flagged for a closer look

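For 3 genes the Q140 difference was not the same in the 2 tissues by the test of that difference: Ntrk3 by -0.37, Sorcs2 by -0.24 and Sort1 by -0.16 (log2, striatum minus cortex). Over the 8 genes, 6 genotypes and 2 tissues, in 7 of 96 groups of 8 mice 1 library stood apart from the rest of its group by Dixon's test, and chance gives about 1 in 20 groups. Bdnf was at 40.4 CPM in the cortex of Msh6-/- mouse 24-3, with the next at 29.1 CPM. Ntf3 was at 0.272 CPM in the striatum of Q140 Msh6-/- mouse 28-1, which is 5 counts, and at 0.842 CPM in the cortex of wild-type mouse 13-2. Ntrk2 was at 631 CPM in the striatum of Q140 Msh6+/- mouse 21-5, with the next at 529.7 CPM. Ntrk3 was at 172 CPM in the cortex of Q140 Msh6+/- mouse 15-1, the lowest of its group. Sorcs3 was at 19.9 CPM in the striatum of Msh6+/- mouse 26-3, the lowest, and at 76.4 CPM in the cortex of Msh6+/- mouse 13-3, the highest.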

How the results depend on the processing

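Of 1558 values of single members under the alternatives, 1539 kept their side of the threshold, 9 passed it only there and 10 passed it only in the main analysis. Among values that passed in either analysis, 0 changed direction. For values that passed in neither, direction was not counted. RLE scaling, an adjusted p below 0.1 and leaving out animal 21-3 changed no call of the tests across all genes. With the animal as a replicate block 8 and 3 members were again called in the tissue comparisons (Bdnf and Ntf3 in the first only through cortex), with Ntrk3 at -0.37 ± 0.04, Sorcs2 at -0.24 ± 0.03 and Sort1 at -0.16 ± 0.02 for the paired Q140 difference; it changed no other call. With the cortical marker level as covariate 2 members, not 1, differed by sex in striatum (Ntrk2 was added). DESeq2 called 1 member for Q140 against wild type in cortex, not 0, and called Sort1 in Msh6+/- cortex, where it gave Sorcs3 no adjusted p. Without the sex term, and on FPKM with either pseudocount, 0 members were called in cortex of Msh6+/- mice, not 1. With the 2 groups alone, or the animal number prefix as covariate, striatal Ntrk2 was called against wild type and striatal Ngfr in Msh6+/- but not in Msh6-/- mice. With the animal number prefix taken out, the correlations of Ntf3 at -0.32 and Ntrk3 at 0.35 passed. The cause of these changes was not tested. Depth limits Bdnf and Ntf3 in striatum, and Ntf3 and Ngfr in cortex.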
